A study of Mus musculus with 4 samples.

Results

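The Id genes, 2 BMP ligand genes and 3 inhibitory genes of BMP and TGFβ signalling were followed in livers of newborn mice without the Hippo kinases LATS1 and LATS2. The 9 genes Id1, Id2, Id3, Id4, Smad6, Smad7, Bmp2, Bmp4 and Bambi were taken by name, with every probe that the platform annotation gives to them, which came to 10 of the 25697 probes on the array, where probes name 16593 genes in all. Of these genes 8 had at least 1 probe and Smad7 had none named here. Whole livers of B6;129 mixed mice at postnatal day 1, all labelled female, were measured on 4 Illumina MouseRef-8 v2.0 bead arrays. The 2 control livers were labelled wild type. The 2 double-knockout livers (DKO) carried Lats1-/-;Lats2f/fl;Alb-cre, so Lats1 was lost in every cell of the animal and Lats2 only where the albumin promoter drives Cre, in cells of the hepatoblast lineage. Endothelial, mesenchymal and blood cells of these livers therefore kept Lats2. Pups were taken from the same pregnant mice according to the labels, but nothing states which array belongs to which litter. Nor does any label state that each array is a separate animal, and each array is called a liver below for short. The p-values below thus rest on the spread among these arrays, which may be technical in the DKO group. Between the control arrays, sex-linked genes given below differ.

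BMPs are secreted ligands of the TGFβ superfamily that act through paired serine/threonine kinase receptors and the transcription factors SMAD1, SMAD5 and SMAD9. Id genes are classic immediate targets of these SMADs. Their products are helix-loop-helix proteins without a DNA-binding region, which capture E proteins and so hold back lineage-specific transcription. Signalling is limited by its own targets: SMAD6 and SMAD7 block the receptors and the signal-carrying SMADs, and BAMBI is a pseudoreceptor without kinase activity. In the liver, BMPs from the mesenchyme help to specify hepatoblasts, and BMP6 from sinusoidal endothelium makes hepatocytes produce hepcidin, the hormone of iron balance.

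The arrays and the livers were examined first. Between 12514 and 13641 probes were detected per array (48.7% to 53.1%), at a detection p under 0.05. Within groups, Pearson's r was 0.95 for both pairs of arrays, taken over probes and so not over independent replicates. The probe for Lats2 (ILMN_2771735) had a log2 change of 0.61 (SE 0.37) that did not pass the test (limma adjusted p = 0.53), and Lats1 had no probe named here. The Lats2 probe read 5.92 and 5.47 in control replicates 1 and 2 and 6.54 and 6.07 in DKO replicates 1 and 2. These are dim values near the lowest detected ones (5.46 to 5.69), and control replicate 2 was below detection. Where the Lats2 probe lies with respect to the deleted exons is not known here, so it does not check the genotype. The Y-linked gene Eif2s3y read 11.31 (normalized log2 intensity) in control replicate 2 and 4.69 to 4.94 on the other arrays, which goes against that liver's female label. Xist (ILMN_3022688) read 9.86 in control replicate 1 and 5.16 in control replicate 2. By these sex-linked genes the control arrays came from different animals, which they cannot show for the DKO arrays. Sex was thus unequal between the groups and its part in the results was not tested. The liver genes Apoa1 and Ttr read 15.50 to 15.71 on all 4 arrays, and whether probes this bright could show a difference was not tested. Among cell type markers, 3 of 4 tested biliary genes rose (Krt7, Krt19 and Cldn4). Krt19 was below detection in both controls, so it entered the test through the DKO arrays alone. Krt7 and Cldn4 were below detection in control replicate 1. The summed normalized intensity of the 4 genes was 172 and 232 in controls against 3132 and 10423 in DKO livers. The control sums thus hold values below detection. Of 6 hepatocyte genes 2 fell (Cyp2e1 and Asgr1), and 3 were lower at an unadjusted p under 0.05. Their median log2 change was -1.09, with 5 of 6 negative, and their sums, in which Apoa1 and Ttr weigh most, were 124275 to 148652 in controls and 109908 to 110491 in DKO livers. None of 9 endothelial genes passed by limma (1 lower at an unadjusted p under 0.05), with a median log2 change of -0.46 and 7 of 9 negative. Their sums, in which Lyve1 weighs most, were 5686 to 9008 in controls and 3886 to 5758 in DKO livers. None of 7 stellate and fibroblast, 3 erythroid, 3 macrophage, 2 lymphoid and 3 megakaryocyte genes passed either. At an unadjusted p under 0.05, 1, 2, 0, 1 and 0 of these were lower and 0 higher. Of all 9502 tested genes, 1.75% rose and 1.68% fell at an adjusted p under 0.05. Unadjusted, 8.05% were higher and 8.03% lower. In whole tissue, more cells of a type and more RNA per cell cannot be told apart.

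Id1 was the only one of the 7 detected member probes to pass the threshold of an adjusted p under 0.05, and it rose. None of the 7 fell past it. For comparison, 1.63% of the 13654 probes tested rose past this threshold and 1.61% fell. The 7 probes belong to 5 genes, since Id2 and Smad6 had 2 each. They were detected on all 4 arrays, so none entered the test through 1 group alone. Their log2 changes were all above 0, with a median of 1.38 against 0.01 over all tested probes. In 6 of them both DKO arrays read above both control arrays, an arrangement seen in 22.3% of all tested probes. At an unadjusted p under 0.05, 4 were higher and 0 lower, against 7.57% of all tested probes that were higher.

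**Figure D1:**
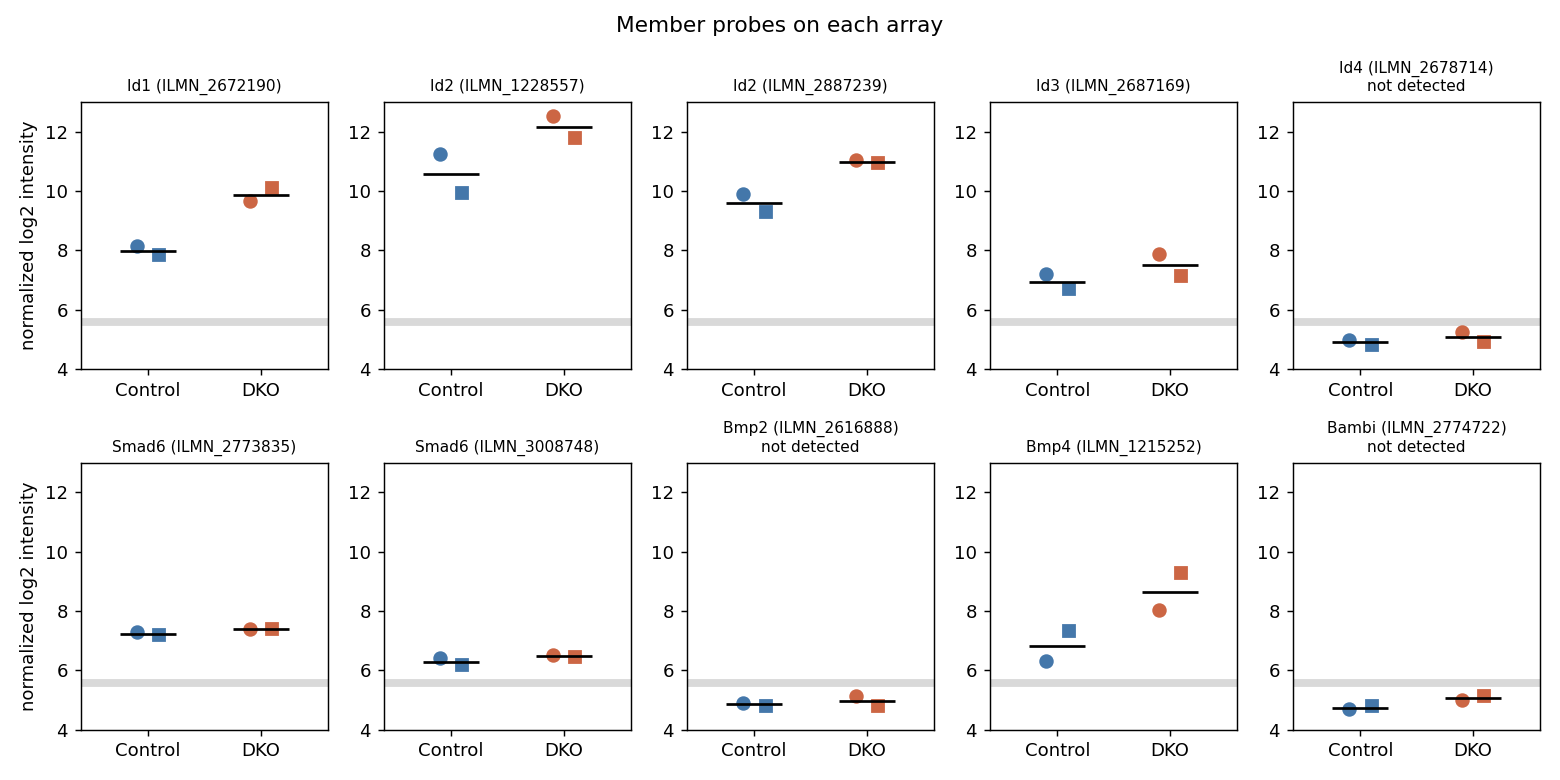
Normalized log2 intensity of the 10 member probes (vertical axis) in control (blue) and DKO (orange) livers, with 1 point per array (circles replicate 1, squares replicate 2), a black line at each group mean and a grey band at the lowest values of detected probes (5.46 to 5.69). Both DKO points stand above both control points for Id1, Id2, Bmp4 and, by a small margin, Smad6, while Id4, Bmp2 and Bambi lie below the band in every liver.

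Id1 (ILMN_2672190) encodes the Id protein best known as a direct readout of BMP signalling, also in endothelium. Its intensity was 471 and 356 in control replicates 1 and 2 and 948 and 1208 in DKO replicates 1 and 2, as deposited on a linear scale. After background correction and normalization these became log2 intensities of 8.13 and 7.85 against 9.65 and 10.11. Both DKO livers stood 1.52 or more above the higher control, and this gap was wider than the spread within either group (0.28 between controls and 0.46 between DKO livers). The change was 1.89 on the log2 scale (SE 0.36, 95% interval 1.05 to 2.73, n = 2 arrays per group, limma adjusted p = 0.038), or 3.71-fold. Of all tested probes 1.94% had a larger rise. The call was lost when control replicate 1 (2.03), control replicate 2 (1.75) or DKO replicate 2 (1.66) was left out, and with the authors' normalized values (1.45, adjusted p = 0.062), and in 7 of all 12 alternatives, with adjusted p between 0.00231 and 0.167.

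The probes whose pattern over the 4 arrays came closest to Id1 were sought among 12841 other named probes. Likeness was the distance between log2 intensities after each probe was centred on its own mean. The 5 nearest were Lrrc1 (distance 0.19), a scaffold protein of the LAP family, Zfp185 (0.19), Slc6a8 (0.20), the creatine transporter, Uap1l1 (0.23) and Tubb2b (0.23), a beta-tubulin. Lrrc1 read 7.10 and 6.81 in controls and 8.59 and 9.29 in DKO livers. Zfp185 and Tubb2b were detected in both DKO livers and in neither control, so their distances rest on control values below detection. Over only 4 arrays this is a description of similar values, with no test. Of the other members only Id2, Id3, Smad6 and Bmp4 had probes in this search, and none of these was among the 5 nearest.

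Id2, the Id gene that represses differentiation in several epithelial and blood lineages, read higher in both DKO livers on both of its probes. ILMN_1228557 read 2846 and 1030.4 in control replicates 1 and 2 and 5936 and 3608 in DKO replicates 1 and 2 as deposited. ILMN_2887239 read 1252 and 724 against 2224 and 2011. On both probes the DKO livers were above the controls, but control replicate 1 was well above control replicate 2, by 1.29 and 0.61 on the normalized log2 scale. The log2 changes were 1.58 (SE 0.51, 95% interval 0.38 to 2.78) and 1.38 (SE 0.37, 95% interval 0.52 to 2.24). Neither passed (limma adjusted p = 0.19 and 0.11), although the intervals, which are not adjusted for the number of probes, lay above 0. Without control replicate 2 the changes were 0.93 and 1.07, and without control replicate 1 they were 2.23 and 1.68. Id2 is also used by lymphoid and other blood cells. The 2 tested lymphoid markers, neither of which passed, had summed normalized intensities of 427 to 456 in controls and 168 to 295 in DKO livers, and their part in the values of Id2 was not tested.

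Id3 (ILMN_2687169), which often follows Id1 in endothelial and haematopoietic cells, had overlapping groups. Its intensity was 318 and 245 in control replicates 1 and 2 and 387 and 290.4 in DKO replicates 1 and 2. The normalized log2 values were 7.19 and 6.69 against 7.88 and 7.14, so that DKO replicate 2 lay just below control replicate 1. The change of 0.57 (SE 0.40, limma adjusted p = 0.61) had a 95% interval of -0.38 to 1.52, which holds both no change and a rise of 2.86-fold. Whether Id3 differed from Id1 in its change was not tested. The change moved from 0.20 without DKO replicate 1 to 0.94 without DKO replicate 2.

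Id4 (ILMN_2678714), the family member known mainly from neural and epithelial tissue, was not detected in any liver. Its intensities of 170.0, 164, 183 and 172 in control replicates 1 and 2 and DKO replicates 1 and 2 lay below the lowest detected intensity of each array (192 to 203), and its detection p was 0.12 or more. No fold can be given.

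The promoter sequences of Id2 and Id3 are shown because these paralogs had the larger and the smaller change among the detected Id genes with a window in the reference. They are RefSeq windows on GRCm38.p6, from 250 bases before to 50 bases after the annotated start, printed 5′ to 3′ on the gene's strand, for 5 of the 9 members matched by symbol. Capitals mark matches on either strand to GGCGCC, a GC-rich element described for BMP-activated SMADs, to CAGAC, which holds the SMAD box, and to CATTCC, the core bound by the YAP partners of the TEAD family. No printed matches overlap each other.
Id2 (chr12:25096043-25096342, minus strand): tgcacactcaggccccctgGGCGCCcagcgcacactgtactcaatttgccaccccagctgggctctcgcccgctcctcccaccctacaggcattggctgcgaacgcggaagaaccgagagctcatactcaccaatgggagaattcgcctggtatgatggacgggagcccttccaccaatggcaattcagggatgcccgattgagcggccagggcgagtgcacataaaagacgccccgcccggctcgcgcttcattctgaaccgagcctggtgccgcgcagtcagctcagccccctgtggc
Id3 (chr4:136143572-136143871, plus strand): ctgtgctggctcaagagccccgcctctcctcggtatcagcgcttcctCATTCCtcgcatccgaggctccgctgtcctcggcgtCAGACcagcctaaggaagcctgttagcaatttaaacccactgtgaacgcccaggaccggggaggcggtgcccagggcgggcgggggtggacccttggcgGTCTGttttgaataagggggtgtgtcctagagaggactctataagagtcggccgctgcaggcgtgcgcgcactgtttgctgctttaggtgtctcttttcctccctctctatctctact
The Id2 window held 1 match, to GGCGCC, which starts at position -231 counted from the start site. The Id3 window held 3, to CATTCC at -203 and to CAGAC at -167 and -68. Of 32817 windows of this length 11.9% held GGCGCC, 49.6% CAGAC and 14.7% CATTCC. The window of Id4, which was not detected in any liver, held GGCGCC at -148 and CATTCC at -226, and the Bmp4 and Smad6 windows held 0 matches to any of these motifs. These are letters in a short window, no factor was measured on this DNA, and GC made up 63.3% of the Id2 window and 60.0% of the Id3 window against a median of 52.7%.

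Bmp4 (ILMN_1215252), a ligand that mesenchyme supplies to the early liver, had the second largest change among the member probes but also the largest SE. Its intensity was 238 and 296 in control replicates 1 and 2 and 407 and 741 in DKO replicates 1 and 2. The DKO livers were both higher, and within each group replicate 2 was the brighter one. Normalized log2 values were 6.30 and 7.33 against 8.02 and 9.27. The change of 1.83 (SE 0.54, 95% interval 0.57 to 3.10), or 3.56-fold, did not pass (limma adjusted p = 0.15). Of all tested probes 2.09% had a larger rise. It passed without DKO replicate 1 (2.46, adjusted p = 0.012) and was 1.20 without DKO replicate 2, and it was 1.10 in the authors' normalized values and 1.07 without background correction, against adjusted p of 0.00178 to 0.501 over all alternatives. On the same arrays the tested stellate and fibroblast markers, another mesenchymal readout, had sums of 13133 to 27946 in controls and 9570 to 20914 in DKO livers. The bright marker Dcn read 13.74 and 11.99 in control replicates 1 and 2 and 13.32 and 11.39 in DKO replicates 1 and 2. Of the 7 markers 2 had changes above 0 and 5 below, from -1.32 (Reln) to 0.79 (Acta2). The part of these markers in the values of Bmp4 was not tested.

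Bmp2 (ILMN_2616888), a ligand that sinusoidal endothelium makes together with Bmp6, was not detected on any array. Its intensities were 165 and 164 in control replicates 1 and 2 and 177 and 165 in DKO replicates 1 and 2, with a detection p of 0.21 or more.

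Among the inhibitory members, Smad6 was detected and nearly level in all livers. ILMN_2773835 read 327 and 281 in control replicates 1 and 2 and 321 and 318 in DKO replicates 1 and 2 as deposited, and ILMN_3008748 read 246 and 218 against 244 and 239. The DKO values lay within the control range before normalization on both probes, and above it by 0.12 and 0.02 on the normalized log2 scale. The log2 changes were 0.16 (SE 0.33, 95% interval -0.61 to 0.93) and 0.18 (SE 0.33, 95% interval -0.60 to 0.97), with limma adjusted p of 0.90 and 0.88. The intervals leave room for a change of up to 1.96-fold. Bambi (ILMN_2774722), known in liver from stellate cells, was not detected, at 152 and 162 in control replicates 1 and 2 and 171 and 184 in DKO replicates 1 and 2. Both DKO livers read above both controls, but all 4 values were below the lowest detected intensity (detection p 0.28 or more) and have no fold.

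**Figure D2:**
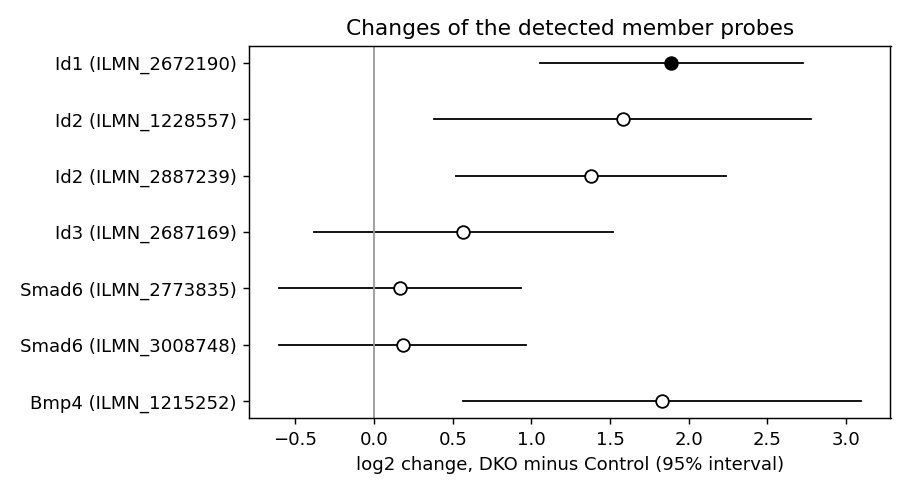
Log2 change, DKO minus control, of the 7 detected member probes (points) with 95% intervals that are not adjusted for the number of probes. The filled point, Id1 at 1.89, is the one with an adjusted p under 0.05, and the intervals of Id3 and both Smad6 probes include 0.

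The rest of the pathway was examined through 69 gene symbols, of which Hfe2 is an older name of Hjv. Probes named 63 of them and 37 were tested, at 1 probe per gene. By limma 0 rose and 1 fell, where 1.75% of 9502 tested genes rose and 1.68% fell. At an unadjusted p under 0.05, 4 were higher and 2 lower, against 8.05% and 8.03% of all tested genes. The 4 include Bmp6, which entered the test through the DKO arrays alone. The median log2 change of the 37 was 0.10 against 0.00457 over all genes. It was the same with Bmp6 and Smurf1, the genes below detection in a group, set at their bounds. Both bounds lay above the median, so this could not move it.

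**Figure D3:**
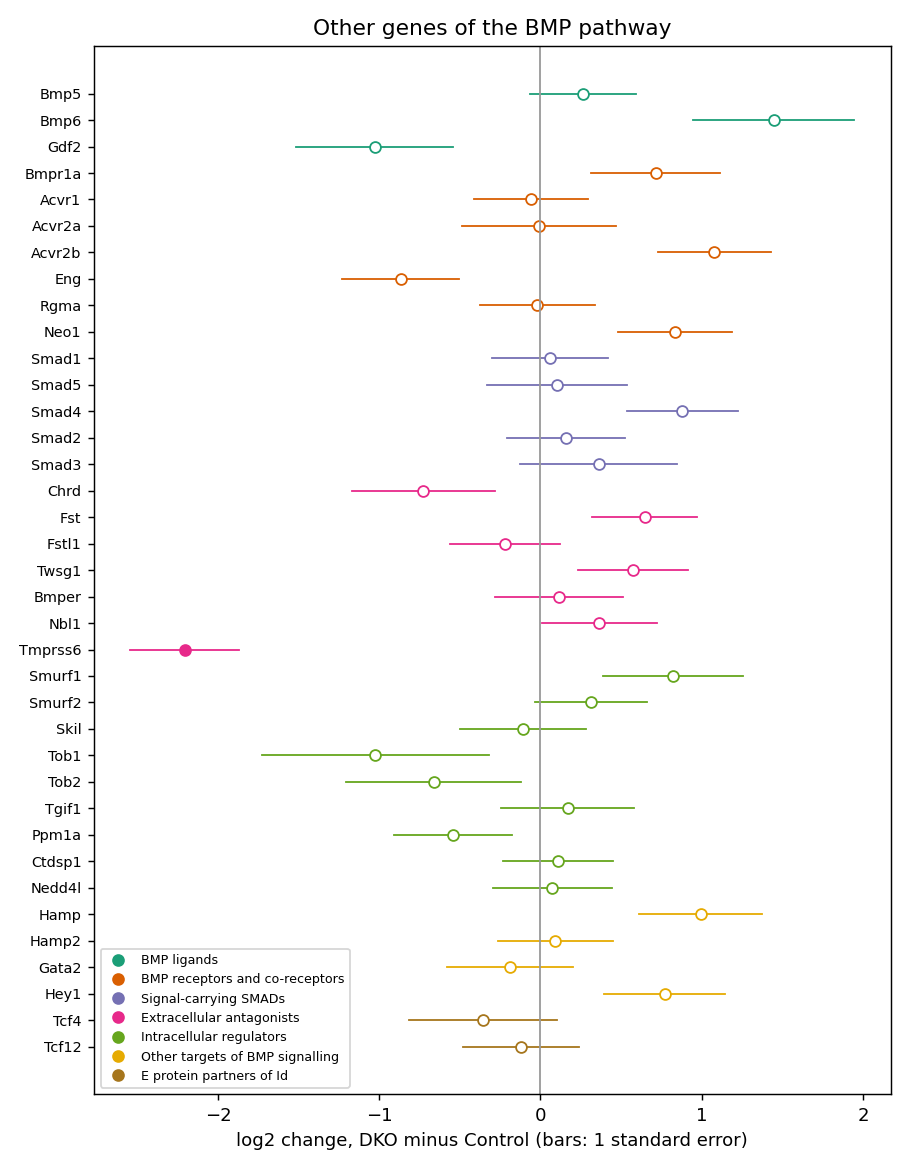
Log2 change, DKO minus control, of the 37 tested genes of the wider BMP pathway, coloured by role, with bars of 1 standard error. The filled point, Tmprss6 at -2.21, is the one past the threshold. Bmp6 and Smurf1 were below detection in both controls. Their points show the fitted changes (1.45 and 0.82), which are larger than their bounds (0.81 and 0.58).

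The gene that fell was Tmprss6, which encodes matriptase-2, a hepatocyte protease that cleaves the BMP co-receptor hemojuvelin and so restrains hepcidin. On ILMN_1227763 it read 9.70 and 9.90 (normalized log2) in control replicates 1 and 2 and 7.49 and 7.69 in DKO replicates 1 and 2. The livers of each group lay close together and the groups far apart. The change was -2.21 (SE 0.34, 95% interval -3.00 to -1.42, limma adjusted p = 0.017). Its other probe, ILMN_2469310, had a change of -1.66 (SE 0.49) that did not pass (adjusted p = 0.15). The call was lost without control replicate 1 (-2.31, adjusted p = 0.083) or control replicate 2 (-2.11, adjusted p = 0.090), and with no filter on dim probes (adjusted p = 0.059), over a range of 0.000541 to 0.0902. On the same arrays 2 of the 6 hepatocyte markers fell (Cyp2e1 and Asgr1). The others did not pass, with changes of -1.30 (Cps1), -0.89 (Alb), -0.08 (Apoa1) and 0.03 (Ttr). The part of hepatocyte content in the change of Tmprss6 was not tested.

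Hamp, which encodes hepcidin and is the main BMP target of hepatocytes, read 13.53 and 13.87 in control replicates 1 and 2 and 15.03 and 14.36 in DKO replicates 1 and 2. The DKO livers were both higher, and the change of 0.99 (SE 0.38, 95% interval 0.09 to 1.89) did not pass (limma adjusted p = 0.28). Hamp and its paralog Hamp2 are closely alike in sequence, so the Hamp probe may also read Hamp2 transcripts. The Hamp2 probe itself read 5.58 and 5.78 in control replicates 1 and 2 and 6.02 and 5.52 in DKO replicates 1 and 2. These values lay near the lowest detected ones (5.46 to 5.69), far below those of Hamp, and DKO replicate 2 was below detection. The Hamp2 change of 0.09 (SE 0.36) thus rests on values near the floor and does not show whether Hamp2 was level. The Notch and BMP target Hey1 had a change of 0.77 (SE 0.37, adjusted p = 0.41).

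Among ligands, Bmp6 was below detection in both controls and detected in both DKO livers, at 5.69 and 7.12 on the log2 scale. It was at least 1.75-fold higher, counting the controls at the lowest detected values, and did not pass (limma adjusted p = 0.22). DKO replicate 2 carried most of this difference. Gdf2, which encodes BMP9, a ligand made by liver stellate cells, read 7.99 and 8.12 in controls and 7.70 and 6.35 in DKO livers (change -1.03, SE 0.48, adjusted p = 0.39). Here too DKO replicate 2 stood apart from the other livers.

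Receptors and signal-carrying SMADs gave 0 calls among 12 tested genes by limma, with 2 higher and 1 lower at an unadjusted p under 0.05 (8.05% and 8.03% of all tested genes). The type I receptor genes Bmpr1a and Acvr1 changed by 0.72 (SE 0.40) and -0.06 (SE 0.35), and the type II receptor gene Acvr2b by 1.08 (SE 0.35, adjusted p = 0.19). The other tested probe of Bmpr1a, ILMN_2653312, had a change of 0.87 (SE 0.40) that did not pass (limma adjusted p = 0.37). Eng, an endothelial co-receptor, had a change of -0.87 (SE 0.36, adjusted p = 0.32). Smad1 and Smad5, which carry the BMP signal, had changes of 0.06 (SE 0.36) and 0.10 (SE 0.43). Their other tested probes had changes of 0.16 (SE 0.39) for Smad1 and 0.24 (SE 0.43) and -0.08 (SE 0.37) for Smad5. Smad4, the partner shared with TGFβ signalling, had a change of 0.88 (SE 0.34, adjusted p = 0.28). Probes for Bmpr2, Acvrl1, Hjv, Smad9 and Atoh8 did not pass the detection filter. Tcf4 and Tcf12, which encode E proteins that Id proteins bind, had changes of -0.36 (SE 0.46) and -0.12 (SE 0.36).

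**Figure D4:**
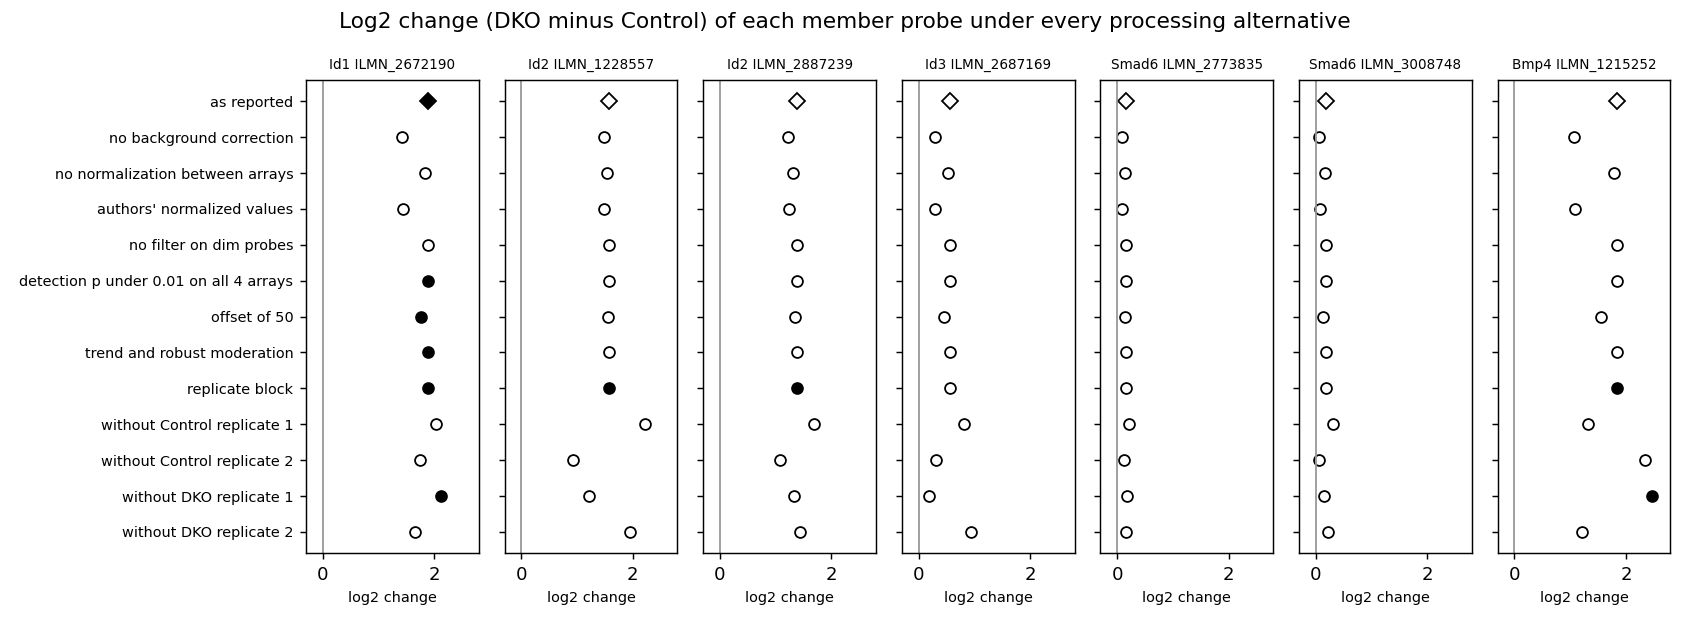
Log2 change, DKO minus control, of each member probe (columns) as reported (diamonds) and under 12 other processing choices (circles, rows), filled where the adjusted p was under 0.05. All points lie above 0, and Id1, with 5 filled circles of 12, is filled more often than any other member probe.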

How the data were processed

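Total RNA of neonatal liver was amplified with biotin labelling and measured on 4 bead arrays. Groups and replicate numbers came from the sample titles. Another label, the description, gives both controls the number 1 and both DKO arrays the number 2. The authors deposited linear probe intensity without normalization across arrays, a detection p-value for each value, and a table of normalized intensity whose column medians were 197.86 to 198.09. Neither that normalization nor the scanner software and its background step is described in the labels or methods. The methods name a log2 scale and a p threshold for arrays, and a paired two-tailed t-test for statistics in general, outside that passage. That t-test was not run here, since nothing states which arrays form pairs. A limma fit that blocks on the replicate numbers of the titles is among the alternatives of the closing section.

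Background was corrected by normexp in limma 3.58.1 (R 4.3.3), an offset of 16 and negative-control levels estimated through the detection p-values, then quantile normalization and log2 were applied. Small signals have their changes shrunk by the offset. The test took in the 13654 of 25697 probes that 2 or more of the 4 arrays detected at p under 0.05. A linear model with eBayes (two-sided, no block, no trend) compared DKO with control, with Benjamini-Hochberg adjustment over all tested probes. For a gene of the wider list the brightest tested probe was used. Annotation named 23978 probes and left 1719 unnamed. The number of arrays limits the precision: the median SE was 0.37 and the smallest change called was 1.65 on the log2 scale. The fit was also run on simulated data with independent normal noise drawn from its own variance estimates. That run holds no deviations shared between arrays, so it does not check these assumptions.

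The members and lists were chosen with earlier results of these data known. All 9 members are named with every probe, as are the 5 tested probes nearest to Id1 in pattern. Of the wider list, genes past the threshold, a few taken for their role and others in counts are named. Acvr2b, Gdf2, Smad4, Hey1, Hamp2, Tcf4 and Tcf12 were added after their values were seen. Where a probe was below detection in a whole group, the fold is a bound: its value on each such array was raised to the lowest detected one where it was lower. Alternatives are described in the closing section.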

Additional observations from a re-analysis of the deposited data

How the results depend on the processing

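In 12 alternatives all 84 log2 changes of the 7 member probes stayed above 0. Id1 lost its call without background correction (1.43), without normalization between arrays (1.84), with the authors' normalized values (1.45) and, at an unchanged 1.89, when all probes were tested, so that 0 member probes passed in each. All probes higher and lower then numbered 74 and 98 with background left in, 94 and 106 for the authors' values, 19 and 30 with no filter (where 0 genes of the wider BMP list fell) and 108 and 110 with a detection p under 0.01 on all 4 arrays, against 223 and 220. With each array left out in turn, which leaves 1 group with a single array assumed to vary like the other group, the change was 1.66 to 2.12 for Id1, 0.93 to 2.23 and 1.07 to 1.68 for the Id2 probes, 0.20 to 0.94 for Id3 and 1.20 to 2.46 for Bmp4. Counts then ran from 0 to 2 for member probes higher, 79 to 377 and 74 to 353 for all probes higher and lower, and 0 to 1 and 0 to 2 for genes of the wider list. The replicate numbers of the titles, which the description field does not share, are not stated to mark a litter, day or donor, so they pair the samples in number only. With a replicate block, 4 member probes passed instead of 1, those of Id1, both of Id2 (1.58 and 1.38) and Bmp4 (1.83), as did 2 higher genes of the wider list, while 926 and 938 of all probes were called. Deviations of same-numbered arrays from their group means correlated at 0.54 over 13654 probes. An offset of 50 and a variance trend with robust moderation changed no call of a member. The cause of each change was not tested. Signals near background limit Smad6, Id3, Bmp4 and the 3 undetected genes most.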
